A study of Mus musculus with 27 samples.

Results

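The expression of 38 genes of the glutathione and antioxidant system was examined in mouse liver. They comprised 21 glutathione S-transferase genes (4 alpha, 7 mu, 2 pi and 3 theta genes, Gstk1, Gsto1, Gstz1 and the microsomal Mgst1 and Mgst3) and 17 genes of the NRF2 pathway and of the removal of reactive oxygen. The genes were chosen by name from these families, and all 38 of them were found among the 17655 genes of the deposited tables. RNA from whole liver of 27 Kdm5b fl/fl mice (B6/J background) was sequenced, 3 mice in each of 9 groups. On the WDA model (a high-fat Western diet combined with alcohol given in water, 8 weeks by the labels, while the study's methods describe a longer course) there were WT females and males, which received a control AAV8 vector, and KO females and males, which received AAV8-CMV-Cre. A further female WDA group, HepKO, received AAV8-TBG-Cre, in which a hepatocyte promoter drives Cre. After 16 weeks of WDA and a further 4 weeks of resolution (Res), WT females and males with a control AAV and KO females and males with AAV-CMV-Cre were examined. The mice began the diet as young adults. All mice, controls included, carried the floxed Kdm5b allele. KDM5B is a histone demethylase that removes methyl groups from lysine 4 of histone H3, and AAV8 enters mainly hepatocytes, so that other liver cells may have kept the gene. Stage coincided with the numbered experiment, the weeks of WDA, the diet at harvest and the time of vector injection, and these cannot be told apart.

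Glutathione S-transferases couple the tripeptide glutathione to reactive and foreign compounds, which then leave the cell, and the liver holds large amounts of them. NRF2, encoded by Nfe2l2, is the transcription factor that induces many of these enzymes under oxidative or electrophilic stress through a DNA sequence named the antioxidant response element. KEAP1 binds NRF2 in unstressed cells and sends it for degradation, so that NRF2 activity is set mainly at the protein level, which was not measured here.

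Summed counts per library were between 14634602 and 19388251. Kdm5b was at 25.95 ± 4.94 CPM (counts scaled to library size by the TMM method, mean ± SD, n = 3) in WT WDA females, 18.1 ± 5.20 in KO WDA females and 13.3 ± 4.63 in HepKO females, and at 24.3 ± 0.71 and 21.5 ± 0.79 in WT and KO WDA males. In Res mice it was 17.1 ± 0.44 and 12.03 ± 1.26 in WT and KO females and 19.2 ± 0.45 and 12.6 ± 4.62 in WT and KO males. The level was thus lower in every group that received Cre, but WT and KO WDA females overlapped. Hepatocyte markers (Alb, Apoa1, Ttr, Cps1, Serpina1c, Tat) summed to at least 73816 CPM in every library. Alb made up most of each sum.

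In 5 libraries the sum of 6 cholangiocyte (bile duct cell) markers (Krt19, Krt7, Epcam, Sox9, Cftr, Spp1) was more than 5 times the median of the 27 libraries, which was 27.1 CPM. It was 529 CPM in KO WDA male mouse 17, 466 CPM in WT WDA female mouse 7, 236 CPM in WT Res female mouse 13, 198 CPM in KO Res male mouse 5 and 155 CPM in WT Res male mouse 9, against at most 105 CPM in the other libraries. Spp1 made up most of these sums, at 479, 420, 201, 169 and 129 CPM in the same order. A sum of stellate and fibroblast markers was 741, 636, 486, 365 and 354 CPM, against a median of 270 CPM. It was 376 CPM in KO Res male mouse 11, which is not among the 5. Several of the 38 genes stood apart in the same 5 livers. Gsta1, an alpha transferase that was barely expressed elsewhere, was the highest of its group in all 5 of them, at 34.7, 24.3, 9.61, 10.4 and 12.3 CPM in the same order, against at most 6.38 CPM in the other 22 libraries. Gstm3, of the mu class, was at 119.6, 77.2, 50.6, 38.99 and 48.1 CPM, against at most 31.8 CPM elsewhere. Gsta2 was also the highest of its group in all 5 livers, by 1.46 to 4.34 times the mean of the other 2 mice. These 3 genes were the highest of their group in all 5 livers in FPKM as well. In FPKM so were Gsta4, Gstm5, Nfe2l2 and Nqo1, which in CPM were the highest in 4, 3, 2 and 4 of the 5 livers. In CPM, 11 other genes were the lowest of their group in all 5 livers, but in FPKM as deposited none of them was. Gsta3, Mgst1 and Sod2 were then the lowest in 4 of the 5 livers, Sod1 in 3 and Txn1 and Gpx1 in 2. Gsto1, Keap1 and Gclc were the lowest in 1 and the highest in 2, and Prdx1 and Gsr were the highest in 2 and 3, so that their direction depended on the scaling. How many of all genes were the highest or lowest of their group in all 5 livers was not counted, so these counts have no background.

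**Figure D1:**
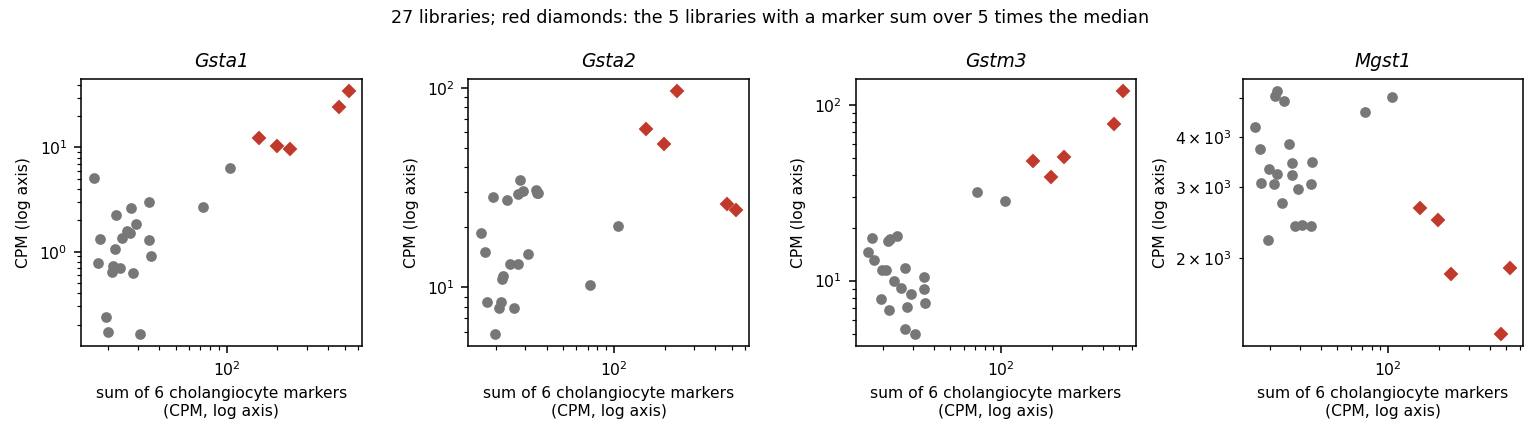
Level of 4 genes (CPM, log axis) against the summed level of 6 cholangiocyte markers (CPM, log axis), 1 point per library. Red diamonds mark the 5 libraries with a marker sum over 5 times the median. Gsta1 and Gstm3 are highest in these 5 livers, while Mgst1 in CPM is the lowest of its group in each of them (in FPKM in 4 of the 5).

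Pericentral hepatocyte markers were lower in the same livers, to differing degrees, against a median of 11948 CPM. They were at 1170.4 CPM in WT WDA female mouse 7 and 2308 CPM in KO WDA male mouse 17. In WT Res female mouse 13, WT Res male mouse 9 and KO Res male mouse 5 they were at 4465, 6603 and 9343 CPM. The next lowest library, KO WDA female mouse 1, had 10729 CPM. Fewer cells of a type and less RNA per cell cannot be told apart in whole liver. Results that changed without these 5 libraries are given both ways. Some reads could also not be assigned to 1 gene. Counts of Gsta1 and Gsta2, of Gstp1 and Gstp2, and of Gstm1 and Gstm3 were fractional in 26 or 27 of the 27 libraries, so that the split of reads between these close relatives is uncertain.

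Compared per gene length, the 38 genes covered a wide range. Mgst1, a membrane-bound transferase with peroxidase activity, had the highest mean at 4398 ± 1098 FPKM (fragments normalised to gene length and library depth, mean ± SD, n = 27 livers). It was followed by the glutathione peroxidase Gpx1 at 1869.5 ± 158 FPKM, the cytosolic superoxide dismutase Sod1 at 1339 ± 159 FPKM and the pi transferase Gstp1 at 1304 ± 1119 FPKM. The spread of Gstp1 over all livers took in the means of Gpx1 and Sod1, but it pools the sexes. Gstp1 was at 456 ± 139 FPKM in females and 2363 ± 856 FPKM in males. Sod1 was at 1380 ± 174 FPKM in females and 1288 ± 127 FPKM in males. The mean of Gstp1 was thus below that of Sod1 in females and above it in males. The lowest were Nqo1 at 7.50 ± 1.98, Gstp2 at 7.10 ± 8.24 and G6pdx at 3.17 ± 1.33 FPKM. The genes also differed in their variation among livers. Sod2, the mitochondrial superoxide dismutase, varied 1.30-fold between its lowest and highest library, whereas Gstp1 varied 11.8-fold, Gsta2 20.9-fold, Gstp2 31.1-fold and Gstm3 33.1-fold. Gsta1 varied most, 277-fold, from 0.26 to 72.1 FPKM.

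**Figure D2:**
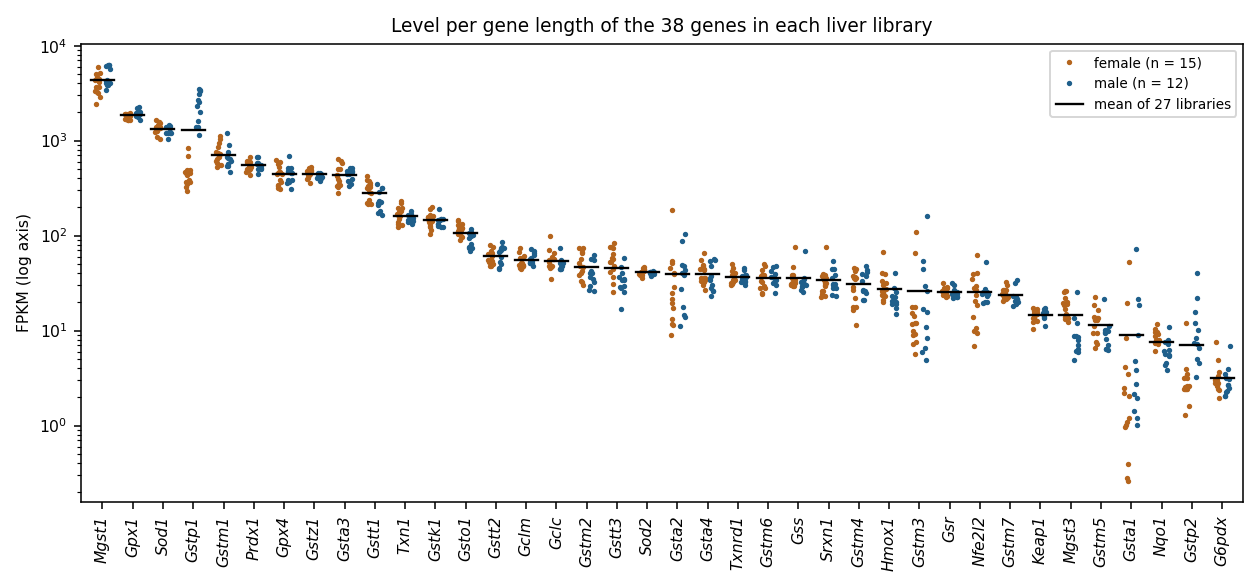
Level per gene length (FPKM, log axis) of the 38 genes, ordered by their mean. Each point is 1 library, brown for the 15 females and blue for the 12 males, and the black line is the mean of all 27. The male and female points of Gstp1 stand fully apart.

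The first comparison asked which of these genes differed between resolution and WDA, with 12 Res mice against 12 WDA mice and with sex and vector in the model. Of the 38 genes, 17 passed an adjusted p of 0.05 (44.7%), 6 higher and 11 lower in Res, where 28.5% of the 13519 genes tested passed. Adjusted p-values here and below come from the quasi-likelihood F test of edgeR and were corrected by the Benjamini-Hochberg method across all genes tested. The median log2 fold change of the 38 genes was -0.04, against -0.01 over all genes. In none of the 38 genes did all Res livers lie on 1 side of all WDA livers, which was so for 0.599% of all genes tested. For some genes below, separation of the stages within 1 sex is given. The share of all genes that separated in that way was not counted, so these statements have no background. In the alpha class 3 of 4 genes rose, with Gsta1 at -1.15 not passing, where 13.1% of all genes were higher. In the mu class 2 of 7 genes fell, in the theta class 2 of 3, with Gstt3 at 0.48 not passing, and among the microsomal transferases both genes, where 15.3% of all genes were lower. Differences between the classes were not tested. Without the 5 livers with high cholangiocyte markers 18 of the 38 genes passed (background 37.7%), with Gstp2 and Gss lost and Gstm3, Gstz1 and Txnrd1 added. In the NRF2 pathway Nfe2l2 itself, Srxn1, Txn1 and Gss fell and Gclm rose. Cell type markers also moved with stage. The hepatocyte sum had a median of 111966 CPM in Res and 92177 CPM in WDA livers, and a sum of 5 lymphocyte markers 7.72 CPM (range 3.24 to 10.4) and 3.22 CPM (range 2.07 to 6.46). Alb made up most of the hepatocyte sum, at 144111 of 172741 CPM in KO Res female mouse 2, and the other hepatocyte markers were not summed apart. The part of these markers in the results was not tested.

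**Figure D3:**
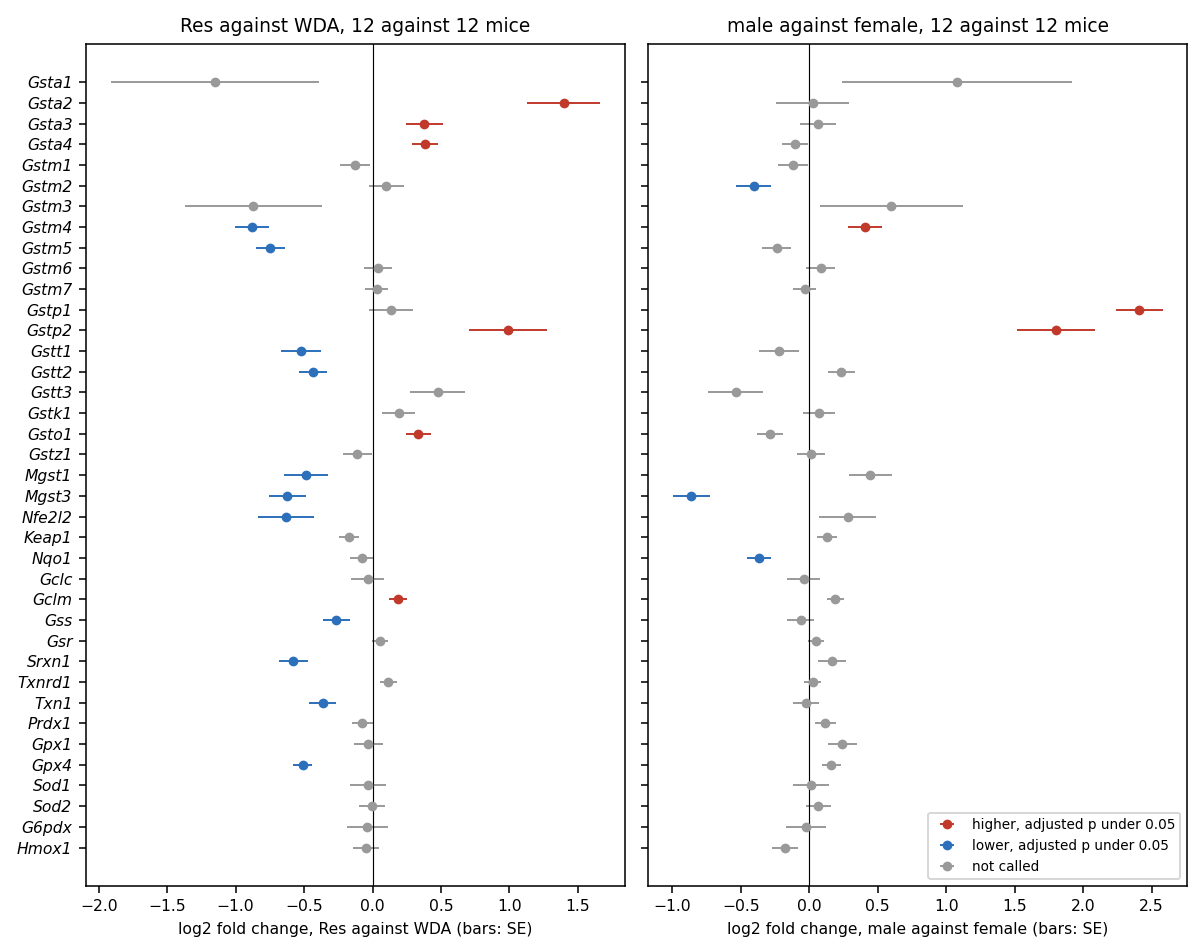
Log2 fold change of each of the 38 genes with its SE, Res against WDA on the left and males against females on the right, 12 against 12 mice in each. Red and blue points passed an adjusted p of 0.05. Between stages 17 genes passed, and between the sexes 6 genes, with Gstp1 and Gstp2 far to the right.

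Gsta2, an alpha transferase inducible by many foreign compounds, rose most in resolution. It was from 14.7 to 96.3 CPM (median 30.2) in the 12 Res livers and from 7.87 to 26.3 CPM (median 12.2) in the 12 WDA livers, a 2.63-fold rise (log2 fold change 1.40, SE 0.27, adjusted p = 5.06e-04). The ranges overlapped in females. In males every Res liver, at 29.4 CPM or more, lay above every WDA liver, at 24.3 CPM or less. Without the 5 livers with high cholangiocyte markers the log2 fold change was 1.18, and it was 0.97 (adjusted p = 0.0419) when the counts of Gsta1 and Gsta2 were summed. Gsta3 and Gsta4, which act on lipid peroxidation products among other substrates, rose by less, with log2 fold changes of 0.38 (adjusted p = 0.0349) and 0.38 (adjusted p = 0.00349), calls lost in 6 and 1 of 30 other settings. Gsta1 did not pass (log2 fold change -1.15, SE 0.76, adjusted p = 0.275), with 3 of the 4 within-group differences negative.

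In the mu class, Gstm4 was from 16.3 to 41.3 CPM (median 29.98) in the 12 Res livers and from 29.3 to 75.7 CPM (median 56.7) in the 12 WDA livers. This was a 1.84-fold fall (log2 fold change -0.88, SE 0.12, adjusted p = 2.11e-05), and the ranges overlapped. Gstm5 was from 4.43 to 6.75 CPM (median 5.33) in the 12 Res livers and from 6.11 to 12.5 CPM (median 8.997) in the 12 WDA livers, a 1.68-fold fall (log2 fold change -0.75, SE 0.11, adjusted p = 2.82e-05). Among females every Res liver had less Gstm5 than every WDA liver. Gstm1, by far the most abundant mu gene, did not pass (log2 fold change -0.13, SE 0.11, adjusted p = 0.395), and neither did Gstm2 (0.10), Gstm6 (0.04) or Gstm7 (0.03). Gstm3 did not pass over the 24 mice (log2 fold change -0.87, SE 0.50, adjusted p = 0.201). Without the 5 livers it was lower in Res, with a log2 fold change of -1.14 (adjusted p = 4.86e-04). The 7 mu genes lie within 1 cluster on chromosome 3, from Gstm5 at chr3:107895854-107898685 to Gstm4 at chr3:108030571-108045179 (GRCm38.p6). The genes at its 2 ends were the ones that fell over the 24 mice, while Gstm3, which passed without the 5 livers, lies inside it. A link with position was not tested.

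**Figure D4:**
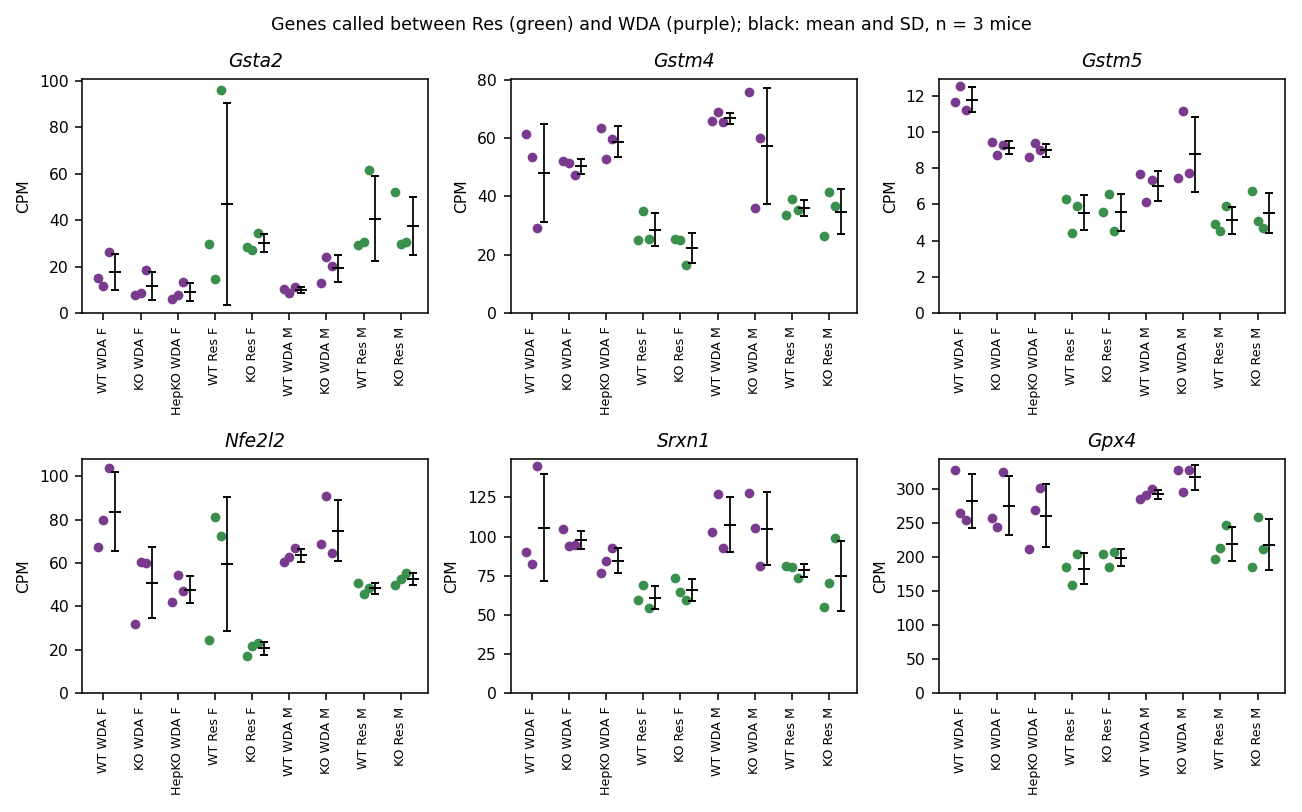
CPM of 6 genes in each library by group, green for Res and purple for WDA mice, with the mean and SD of 3 mice in black. Gsta2 is higher, and Gstm4, Gstm5, Srxn1 and Gpx4 lower, in Res mice, and Nfe2l2 is lowest in KO Res females.

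Among the other transferases, Gstp2 was from 0.70 to 19.2 CPM (median 4.51) in the 12 Res livers and from 0.89 to 4.23 CPM (median 1.80) in the 12 WDA livers (log2 fold change 0.99, SE 0.28, adjusted p = 0.0112). This rise did not hold without the 5 livers, where its log2 fold change was 0.46 (adjusted p = 0.102). Gstp1, its far more abundant neighbour, did not pass (log2 fold change 0.13, SE 0.16, adjusted p = 0.576). Gstt1, a theta enzyme that acts on small halogenated compounds, was from 136 to 261 CPM (median 157) in the 12 Res livers and from 128 to 341 CPM (median 279) in the 12 WDA livers, a 1.44-fold fall (log2 fold change -0.52, SE 0.15, adjusted p = 0.00988). Gstt2 fell by 0.43 on the log2 scale (adjusted p = 0.00235), and Gstt3 did not pass (log2 fold change 0.48, SE 0.20, adjusted p = 0.0771). Gsto1, an omega transferase with reductase activity, rose by 0.34 (adjusted p = 0.01), while Gstk1 (0.19) of mitochondria and peroxisomes and Gstz1 (-0.11) of tyrosine breakdown did not pass.

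Both microsomal transferases fell. Mgst1 was from 1832 to 3478 CPM (median 2574) in the 12 Res livers and from 1298 to 5202 CPM (median 3984) in the 12 WDA livers, a 1.40-fold fall (log2 fold change -0.49, SE 0.16, adjusted p = 0.0242). Mgst3, which conjugates leukotriene A4, was from 4.78 to 12.1 CPM (median 9.29) in the 12 Res livers and from 5.75 to 22.7 CPM (median 16.1) in the 12 WDA livers, a 1.54-fold fall (log2 fold change -0.62, SE 0.13, adjusted p = 0.00126). Among females the Res livers, with at most 12.1 CPM of Mgst3, did not overlap the WDA livers, with at least 15.7 CPM.

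Nfe2l2 was from 17.01 to 81.4 CPM (median 48.99) in the 12 Res livers and from 32.1 to 104 CPM (median 65.8) in the 12 WDA livers, a 1.55-fold fall (log2 fold change -0.63, SE 0.20, adjusted p = 0.0223). The fall was not even across groups. KO Res females had 17.01, 21.7 and 23.04 CPM and KO WDA females 32.1, 60.7 and 59.99 CPM, whereas WT Res females had 24.3, 81.4 and 72.7 CPM and WT WDA females 67.6, 79.7 and 104 CPM. In males WT Res mice had 50.7, 45.9 and 48.3 CPM against 60.6, 62.97 and 66.9 CPM in WDA, and KO Res mice 49.6, 52.7 and 55.2 CPM against 68.8, 90.95 and 64.8 CPM. The male stages did not overlap, while in WT females 2 of the 3 Res livers lay within the WDA range. Keap1 did not pass over the 24 mice (log2 fold change -0.17, SE 0.07, adjusted p = 0.0731).

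Downstream of NRF2 the genes differed from each other. Srxn1, which restores overoxidised peroxiredoxins and is a well-known NRF2 target, was from 54.5 to 99.3 CPM (median 69.4) in the 12 Res livers and from 81.4 to 145 CPM (median 98.7) in the 12 WDA livers, a 1.49-fold fall (log2 fold change -0.58, SE 0.10, adjusted p = 2.39e-04). Txn1, the cytosolic thioredoxin, fell by 0.37 on the log2 scale (adjusted p = 0.00666). The quinone reductase Nqo1, the classical NRF2 marker, did not pass (log2 fold change -0.07, SE 0.09, adjusted p = 0.566), and neither did the heme oxygenase Hmox1 (log2 fold change -0.05, SE 0.10, adjusted p = 0.753). Txnrd1 (0.12) and G6pdx (-0.04), which supply reducing power, did not pass either. In glutathione synthesis, Gclm, the regulatory subunit of glutamate-cysteine ligase, rose by 0.19 (SE 0.06, adjusted p = 0.0277), a call lost in 4 of 30 other settings. The catalytic subunit Gclc was at -0.03 (SE 0.12, adjusted p = 0.861) and the reductase Gsr at 0.05, neither passing. Glutathione synthetase, Gss, fell by 0.27 (adjusted p = 0.0438), a call lost in 19 of 30 other settings.

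Gpx4, the selenium enzyme that reduces lipid hydroperoxides in membranes, was from 159 to 259 CPM (median 205) in the 12 Res livers and from 245 to 329 CPM (median 294) in the 12 WDA livers. It fell 1.43-fold (log2 fold change -0.51, SE 0.07, adjusted p = 1.57e-05). The stages did not overlap within females or within males, and the share of all genes for which this held was not counted. The other 4 genes of peroxide and superoxide removal did not pass, with log2 fold changes of -0.08 for Prdx1, -0.03 for Gpx1, -0.04 for Sod1 and -0.01 for Sod2.

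The letters of the antioxidant response element core (TGACNNNGC, or GCNNNGTCA on the other strand) were searched in the 250 bases before each start in RefSeq (GRCm38.p6). Of the 38 genes 10 held them, and 5 of these 10 had passed between stages. Over the 38 genes 44.7% had passed, and over all genes tested 28.5%. A link between the core and the change with stage was not tested. An entry was found for 33 of the 38 genes, so that 30.3% of these held the core, as did 10.2% of all 32851 promoters and 11.5% of the 27025 genes that have one. Gsta3 and Gclm rose, while Nfe2l2, Gstm5 and Mgst1 fell. Their sites are shown with the strand of the gene, 5′ to 3′, the matching letters in capitals and 10 bases on each side, because genes with the same core moved in opposite directions.
Gsta3 (chr1:21240454-21240482, + strand): aactcaggcaTGACATTGCatttttcttc
Gclm (chr3:122245413-122245441, + strand): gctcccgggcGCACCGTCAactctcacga
Nfe2l2 (chr2:75704885-75704913, - strand): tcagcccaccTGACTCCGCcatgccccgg
Gstm5 (chr3:107895802-107895830, + strand): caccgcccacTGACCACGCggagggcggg
Mgst1 (chr6:138140461-138140489, + strand): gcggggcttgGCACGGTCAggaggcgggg
The other 5 genes with the core, Gstm7, Prdx1, Txnrd1, Sod1 and G6pdx, did not pass between stages. Other forms of the element were not searched.

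The 4 separate comparisons of stage, 3 against 3 mice each, share no mice with one another. For 16 of the 17 genes the sign was the same in all 4, Gstp2 being the exception with -0.48 in KO females. These are parts of the same 24 mice and add no further mice to the result. In WT males 9 of the 38 genes passed (background 11%), and in KO females 14 passed (background 20.4%). No gene passed in WT females, where 0% of the 12603 genes tested did by edgeR, although 5 of the 38 and 13.6% of all genes had an unadjusted p under 0.05 and DESeq2 called 2 of the 38, Gstm5 and Gpx4, and 3.09% of all genes. In KO males no gene passed either, with 6 of the 38 and 6.43% of all genes under an unadjusted 0.05 and 0 of the 38 and 0.62% of all genes called by DESeq2. In KO females Gstt3 (0.96), Gstk1 (0.50) and Gstm3 (-0.65) passed in addition to 11 of the 17, and these calls were lost in 1, 6 and 5 of 11 other settings. The count in WT males fell to 1, that of Gstm4, without WT WDA mouse 21, and the count in KO females to 6 without KO Res mouse 4. The difference between the sexes in the effect of stage was tested over the 24 mice and did not pass for any of the 38 genes (lowest adjusted p = 0.703, for Gstp2), where 0.126% of all genes passed. Under an unadjusted 0.05 there were 2 of the 38 and 6.37% of all genes, and DESeq2 called 0 of the 38 and 0.595% of all genes.

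The second comparison was that of 12 males with 12 females, with stage and vector in the model. Here 6 of the 38 genes passed (15.8%), 3 higher and 3 lower in males, where 9.48% of all genes tested passed. Gstp1, a pi transferase that conjugates many electrophiles and is known for its high level in male mouse liver, differed most. It was from 451 to 1908 CPM (median 1433) in the 12 male livers and from 173 to 306 CPM (median 229) in the 12 female livers, a 5.32-fold difference (log2 fold change 2.41, SE 0.17, adjusted p = 5.49e-10). The lowest male, KO WDA mouse 17, lay above the highest female, WT WDA mouse 7. Gstp1 was the only 1 of the 38 genes whose sexes did not overlap, which was so for 0.318% of all genes tested.

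By group, the females had 247, 223 and 306 CPM (WT WDA), 192, 173 and 245 CPM (KO WDA), 194, 214 and 276 CPM (WT Res) and 266, 173 and 234 CPM (KO Res). The males had 1511, 1742 and 1355 CPM (WT WDA), 1143, 451 and 786 CPM (KO WDA), 1908, 1897 and 1602 CPM (WT Res) and 635, 1522 and 796 CPM (KO Res). WT males were thus the highest at both stages, and KO males were lower and spread more widely. The 2 lowest males, KO WDA mouse 17 and KO Res mouse 5, were among the 5 livers with high cholangiocyte markers. KO Res mouse 5 also had 831 CPM of 7 female liver markers, against at most 210.4 CPM in the other males. Without that mouse the log2 fold change was 2.47, and without the 5 livers 2.62. Separately, the difference passed in WT WDA mice (2.56, background 0.851%), WT Res mice (2.97, background 0.545%) and KO Res mice (2.16, background 6.34%). In KO WDA mice it was 1.96 (adjusted p = 0.0839, background 0.296%), and it passed there without mouse 17 (2.24, adjusted p = 4.41e-04). Mgst3 was the other gene of the 2 that passed in WT WDA mice (-1.42), where the count was 9 without mouse 7 and 0 without mouse 5. By DESeq2 4 of the 38 genes passed in WT WDA mice (background 4.47%), 3 in WT Res mice (background 2.14%) and 1, Gstp1, in KO WDA mice (background 2.49%).

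Gstp2 lies next to Gstp1 on chromosome 19, at chr19:4040288-4042221, with Gstp1 at chr19:4035411-4037912. It was from 1.88 to 19.2 CPM (median 4.23) in the 12 male livers and from 0.70 to 4.85 CPM (median 1.29) in the 12 female livers (log2 fold change 1.80, SE 0.29, adjusted p = 1.40e-04). At these low levels and with shared reads, the split between Gstp2 and Gstp1 is uncertain, and the sum of both genes differed by 2.41 (adjusted p = 5.08e-10). The 250 bases before each start are printed from RefSeq (GRCm38.p6), on the strand of the gene, because the pair differ in level and their counts share reads, with the letters TGAGTCA in capitals.
Gstp1 (chr19:4037913-4038162, - strand): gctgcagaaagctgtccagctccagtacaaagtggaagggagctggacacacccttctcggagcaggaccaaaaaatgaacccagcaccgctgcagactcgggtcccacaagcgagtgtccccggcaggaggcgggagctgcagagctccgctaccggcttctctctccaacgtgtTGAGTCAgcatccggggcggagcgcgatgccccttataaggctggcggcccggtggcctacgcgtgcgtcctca
Gstp2 (chr19:4042222-4042471, - strand): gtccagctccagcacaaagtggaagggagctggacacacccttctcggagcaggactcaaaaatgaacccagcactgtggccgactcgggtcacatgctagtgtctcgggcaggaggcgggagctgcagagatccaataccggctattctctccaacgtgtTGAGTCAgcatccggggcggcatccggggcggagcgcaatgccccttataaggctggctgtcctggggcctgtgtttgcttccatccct
In a global alignment the sequences were identical at 207 of 265 columns (78.1%). The letters TGAGTCA, a site of AP-1 factors that is read TGACTCA on the other strand, occurred in 4.46% of all 32851 promoters of this length and 5.16% of the 27025 genes, and in 5 of the 33 members with an entry, the others being Gstm5, Prdx1 and Srxn1. In Prdx1 these letters overlap the core of the antioxidant response element. None of Gstm5, Prdx1 and Srxn1 passed between the sexes over the 24 mice. In Gstp1, in Gstp2 and at a site in Srxn1 the letters TGAGTCA are followed by GC. Forms of the antioxidant response element other than TGACNNNGC were not searched, so a gene without that core may still hold the element.

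**Figure D5:**
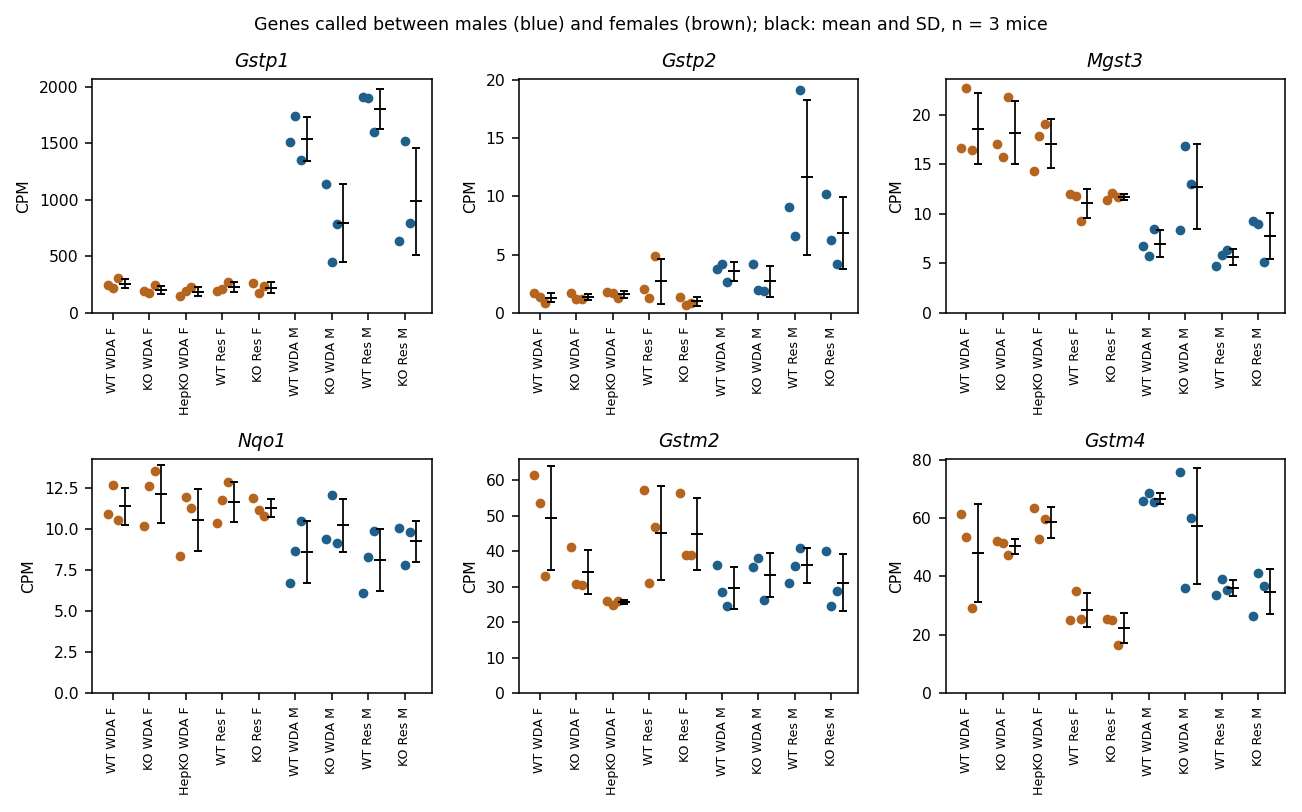
CPM of the 6 genes that passed between males and females, in each library by group, brown for females and blue for males, with the mean and SD of 3 mice in black. Gstp1 separates the sexes completely, while Mgst3 and Nqo1 are lower in most males.

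Of the other genes that passed, Mgst3 was from 4.78 to 16.9 CPM (median 7.54) in the 12 male livers and from 9.33 to 22.7 CPM (median 13.9) in the 12 female livers, a 1.82-fold lower level in males (log2 fold change -0.86, SE 0.13, adjusted p = 1.10e-04). In Res mice the sexes did not overlap, but in WDA mice the KO males with 8.34, 16.9 and 13.1 CPM reached the female range through 1 mouse. Nqo1 was from 6.11 to 12.1 CPM (median 9.25) in the 12 male livers and from 10.1 to 13.5 CPM (median 11.4) in the 12 female livers, 1.29-fold lower in males (log2 fold change -0.36, SE 0.09, adjusted p = 0.00883). Its sexes did not overlap in Res mice, where the highest male had 10.04 and the lowest female 10.4 CPM. The share of all genes whose sexes did not overlap within 1 stage was not counted. Gstm2 was lower in males (log2 fold change -0.41, SE 0.13, adjusted p = 0.0463) and Gstm4 higher (log2 fold change 0.41, SE 0.12, adjusted p = 0.0373), but these calls were lost in 16 and 15 of 31 other settings. With library totals in place of scaling factors the median of all genes moved by -0.11, and 8 genes passed, 2 higher and 6 lower in males, Gstm4 no longer among them.

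The remaining genes of the pathway did not pass between the sexes. Nfe2l2 was at 0.28 (SE 0.21), Keap1 at 0.13, Gclc at -0.04, Gclm at 0.19 (adjusted p = 0.0532), Hmox1 at -0.18 and Srxn1 at 0.17. Among the transferases Gstm1 was at -0.12, Gsta1 at 1.08 (SE 0.84) and Gstm3 at 0.60 (SE 0.52). Without the 5 livers 13 of the 38 genes passed, where 17.8% of all genes did. The 7 added were Mgst1 (0.48), Srxn1 (0.28), Gpx1 (0.27) and Gstt2 (0.25), higher in males, and Gstt3 (-0.61), Gstm5 (-0.37) and Gsto1 (-0.31), lower in males. In KO Res mice alone, Nfe2l2 passed as higher in males (log2 fold change 1.38, SE 0.15, adjusted p = 0.00244), along with Gstp2 (2.83) and, in the other direction, Gstt3 (-0.998). The call of Gstt3 was lost in 7 of 11 other settings, among them 5 of the 6 in which a mouse was left out, and those of Nfe2l2 and Gstp2 in none of the 11.

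The third comparison was KO with WT, 12 against 12 mice, with stage and sex in the model. By edgeR 0 of the 38 genes and 0% of the 13519 genes tested passed, while 5 of the 38 and 8.19% of all genes had an unadjusted p under 0.05, and DESeq2 called 0 of the 38 and 0.144% of all genes. The 5 were Gstp1 (log2 fold change -0.55, SE 0.16, adjusted p = 0.377), Gstp2 (-0.61), Nfe2l2 (log2 fold change -0.45, SE 0.21, adjusted p = 0.591), Mgst3 (0.33) and Hmox1 (log2 fold change 0.24, SE 0.10, adjusted p = 0.534). The others given for every comparison were Keap1 at 0.01, Nqo1 at 0.12, Gclc at -0.03, Gclm at -0.10, Srxn1 at -0.03, Gstm1 at -0.06, Gstm3 at -0.36 (SE 0.53) and Gsta1 at -0.55 (SE 0.84). The median absolute log2 fold change of the 38 genes was 0.07 against 0.09 over all genes. Gstp1 was lower in KO than in WT males without overlap at either stage, by 0.94 in WDA (adjusted p = 0.588) and 0.86 in Res mice (adjusted p = 1) on the log2 scale, neither passing. Its log2 fold change over the 24 mice was -0.36 without the 5 livers. How many of all genes separated KO from WT males without overlap was not counted.

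Within each sex and stage none of the 38 genes passed for KO against WT, and by edgeR no gene of the whole table did. Under an unadjusted 0.05 there were 4 of the 38 genes and 3.11% of all in WDA females, 5 and 7.71% in WDA males, 6 and 19.2% in Res females and 1 and 1.45% in Res males. DESeq2 called 1 of the 38 and 4.93% of all genes in Res females, and 0 of the 38 in WDA females, WDA males and Res males, with 0.0648%, 0.155% and 0.0555% of all genes. The 1 gene was Nfe2l2. It had 17.01, 21.7 and 23.04 CPM in KO Res females and 24.3, 81.4 and 72.7 CPM in WT Res females, in the order of mice 2, 3 and 4 and of mice 1, 12 and 13. The KO mice were all below the WT mice, but WT mouse 1 was close to them (log2 fold change -1.59, SE 0.40, adjusted p = 0.12). The hepatocyte marker sum was 156757 CPM in WT mouse 1 and 144799 to 172741 CPM in the KO mice. It was 111619 and 98608 CPM in WT mice 12 and 13, and mouse 13 was 1 of the 5 livers with high cholangiocyte markers. The part of these differences was not tested. Without WT mouse 1, the control closest to the KO mice, Nfe2l2 passed, at -1.95 (adjusted p = 0.00668), together with Gstm6 at 0.63, in a fit whose share of all genes is not given. In Res males the difference was 0.13, and the test of the difference between the sexes gave 1.70 (SE 0.46, adjusted p = 0.265, background 0%), with 2 of the 38 and 11.5% of all genes under an unadjusted 0.05. DESeq2 called 1 of the 38, Nfe2l2, and 0.605% of all genes.

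HepKO females on WDA were compared with the same WT and KO females. By edgeR 0 of the 38 genes and 0% of all genes passed against WT, with 8 of the 38 and 10.1% of all genes under an unadjusted 0.05, while DESeq2 called 4 of the 38 and 1.95% of all genes. The 4 were mu transferases and Nfe2l2. Gstm1 had 575, 578 and 623 CPM in HepKO, 728, 613 and 747 CPM in KO and 1022, 1180.0 and 804 CPM in WT females, and HepKO against WT gave log2 fold change -0.76, SE 0.19, adjusted p = 0.288. Gstm2 had 25.99, 24.9 and 26.1 CPM, 41.3, 30.7 and 30.4 CPM and 61.4, 53.6 and 33.05 CPM in the same order (log2 fold change -0.95, SE 0.22, adjusted p = 0.256). Gstm6 was at -0.55 and Nfe2l2 at -0.82. HepKO livers lay below all WT livers in each of these, and the share of all genes that did so was not counted. Without WT mouse 7, 1 of the 5 livers above, 5 of the 38 genes passed by edgeR, namely Gstm1 (-0.89), Gstm2 (-1.16), Gstm3 (-0.68), Gstm6 (-0.59) and Nfe2l2 (-0.62). The share of all genes that passed in this fit is not given, so the count has no background. KO females, compared with the same WT mice, were at -0.54 for Gstm1, -0.55 for Gstm2, -0.32 for Gstm6 and -0.74 for Nfe2l2, none of which passed. HepKO against KO gave 0 of the 38 genes (background 0.0162%), with 4 of the 38 and 5.74% of all genes under an unadjusted 0.05 and 0 and 0.308% called by DESeq2. Hmox1 in HepKO females spread widely, at 89.8, 53.9 and 32.2 CPM, against 27.5, 28.4 and 39.4 CPM in WT females. The difference between stages in the effect of KO did not pass for any of the 38 genes (background 0%), with 0 of the 38 and 2.34% of all genes under an unadjusted 0.05 and 0 and 0% called by DESeq2.

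Other genes of the system were taken as lists. Between stages, 2 of 33 other glutathione and antioxidant genes were higher and 6 lower in Res, 4 of 31 other NRF2 targets and partners higher and 11 lower, and 0 of 5 other transferase genes tested higher and 1 lower, against 13.1% of all genes higher and 15.3% lower. The median log2 fold change was 0.02, -0.24 and -0.03 for the 3 lists. Among the genes that passed, Akr1b7, an aldo-keto reductase, had the lowest log2 fold change, at 1.12 ± 0.95 CPM in Res and 4.37 ± 4.40 CPM in WDA mice (log2 fold change -1.94, adjusted p = 6.67e-04). Gstp3, the third pi gene, was at 6.06 ± 1.19 and 14.7 ± 5.43 CPM (log2 fold change -1.23, adjusted p = 7.05e-07), so that it fell while Gstp1 did not pass. Maff, a small MAF protein that pairs with NRF2 on DNA, fell as well (log2 fold change -0.95, adjusted p = 0.0208). The highest log2 fold changes among the genes that passed were those of the carboxylesterase Ces1g (log2 fold change 0.91, adjusted p = 1.53e-04), Ggt5, which cleaves glutathione conjugates (log2 fold change 0.86, adjusted p = 0.00214), and Txnip, a binding partner of thioredoxin (log2 fold change 0.68, adjusted p = 0.0231).

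Between the sexes, 3 of the 33 were higher and 4 lower in males, 3 of the 31 higher and 5 lower, and 0 of the 5 higher and 2 lower, against 4.4% and 5.07% of all genes. Among the genes that passed, Akr1b7 again had the lowest log2 fold change, at 1.21 ± 1.27 CPM in males and 4.28 ± 4.39 CPM in females (log2 fold change -1.77, adjusted p = 0.00402), followed by the efflux transporter Abcc4 (log2 fold change -0.85, adjusted p = 9.28e-04) and Txnip (log2 fold change -0.74, adjusted p = 0.034). The catalase gene Cat (log2 fold change 0.55, adjusted p = 0.00834), the aldehyde oxidase Aox1 (log2 fold change 0.49, adjusted p = 0.011) and the peroxiredoxin Prdx5 (log2 fold change 0.47, adjusted p = 0.00522) had the highest among the genes that passed. Gstp3 was lower in males, at 8.07 ± 3.22 against 12.7 ± 7.03 CPM (log2 fold change -0.56, adjusted p = 0.0051), the direction opposite to that of Gstp1 and Gstp2. Between KO and WT none of the genes in these lists passed.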

How the data were processed

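RNA from 27 mouse livers was sequenced (9 groups of 3 mice). Per the labels and file headers, the authors deposited 4 tables with expected counts per gene, which are not all whole numbers, and FPKM values, normalised by gene length and depth. The submitters' processing notes name HISAT, Bowtie2 and GRCm38.p6, and the program that counted reads is not given in the sources used here. Counts were rounded, genes with low counts were removed with filterByExpr (minimum count 10), and libraries were scaled by TMM. Each comparison was fitted across all genes with the quasi-likelihood test of edgeR 4.0.16 (R 4.3.3), checked on simulated data, at an adjusted p of 0.05. Levels are TMM-scaled CPM except where FPKM is named. FPKM was used to compare genes with each other, to give the range of each gene among livers and to check ranks within groups. Totals were 14634602 to 19388251 counts per library, and low genes such as Gsta1 and Gstp2 also carry counting error. Each library was taken as 1 mouse by its numbered title, and p-values cover the spread among these mice in 1 experiment per stage. An exact permutation test of 3 against 3 mice cannot go below 0.1 and was not used.

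The 38 genes and the other gene lists were chosen with earlier results of these data known. In each comparison up to 10 of the genes that passed, ordered by absolute log2 fold change, were given with their values, and Nfe2l2, Keap1, Nqo1, Gclc, Gclm, Hmox1, Srxn1, Gstp1, Gsta1, Gstm1 and Gstm3 were given in the 3 fits over 24 mice whether or not they passed. From the other lists up to 3 genes at each end were named, and Gstp3 was added between the sexes after its values were seen. The alternatives were RLE scaling, library totals, no filter, 1 fit of all 27 libraries, DESeq2 1.42.0, summed counts of close copies and leaving out each mouse. Promoter sequences came from RefSeq (GRCm38.p6) and were aligned with Biopython 1.88.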

Additional observations from a re-analysis of the deposited data

How the results depend on the processing

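Counts in this section are of the 38 genes at an adjusted p of 0.05, unless all genes are named. Where a mouse was left out, here and above, the share of all genes that passed is not given. The counts over 24 mice were 17 for stage, 6 for sex and 0 for KO, and leaving out each mouse gave 14 to 18, 4 to 9 and 0. With 3 against 3 mice the counts moved more. Leaving out a mouse gave 1 to 10 in place of 9 for stage in WT males, 6 to 15 in place of 14 for stage in KO females, 0 (without WT WDA male mouse 20, among others) to 9 (without WT WDA female mouse 7) in place of 2 for sex in WT WDA mice, 0 to 1 (without KO WDA male mouse 17) in place of 0 for sex in KO WDA mice and 2 to 5 in place of 4 for sex in KO Res mice. It gave 0 to 2 for KO in Res females and 0 to 1 for KO by sex in Res mice, the higher count without WT Res female mouse 1, and 0 to 5 for HepKO against WT. In 1 fit of all 27 libraries, stage in WT females gave 3, in WT males 2 and in KO females 4. Over all genes these stage counts were 840, 308 and 1558, in place of 0, 1361 and 2550. In the same fit sex in WT Res mice gave 3 and in KO WDA mice 1, and KO in Res females gave 1. Over all genes these were 176, 187 and 670, in place of 69, 37 and 0. DESeq2 gave 2 for stage in WT females, 4, 3 and 1 for sex in WT WDA, WT Res and KO WDA mice, 1 for KO in Res females, 4 for HepKO against WT and 1 for KO by sex in Res mice. Library totals without scaling factors gave 1 for sex in KO WDA mice, and 4 higher and 2 lower, in place of 4 and 5, for stage in WT males. Over all genes they gave 40 in place of 37 for the former and 814 in place of 1361 for stage in WT males. They moved the median of all genes by 0.13 there and by -0.32 for sex in WT WDA mice. The cause of these changes was not tested.

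Leaving out the 5 livers with high cholangiocyte markers, an alternative chosen after seeing the data, gave 18 for stage, where 37.7% of all genes passed, and 13 for sex. It turned the sign of values that did not pass, to 0.079 for Hmox1 between stages and, for KO, to 0.59 for Gsta1, 0.11 for Gstm3, -0.0059 for Keap1 and 0.062 for Srxn1. Library totals turned Keap1 for KO to -0.019. When each mouse was left out, values that turned sign ranged from -0.13 to 0.016 for Gclc and -0.084 to 0.0037 for Hmox1 between stages, from -0.10 to 0.052 for Gclc between the sexes and, for KO, from -0.92 to 0.29 for Gsta1, -0.029 to 0.036 for Keap1, -0.093 to 0.059 for Gclc and -0.084 to 0.035 for Srxn1. In the 3 fits over 24 mice, of 1554 values that the other settings gave for 53 results of single genes, 1455 kept their direction and side of the threshold, 64 lost the call, 11 gained one and 24 turned sign. No paired analysis was possible because the mouse numbers repeat only between the experiments and name different mice.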
